A study of Mus musculus with 2 samples.

Results

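The genes described here are mouse genes of the interferon response, the tripartite motif (Trim) family and innate sensing. They were chosen by a rule on symbols, which uses no measured value but was written with earlier results of these data known. It takes symbols that start with Trim, Pml, Irf, Ifi, Ifn, Oas, Isg, Gbp, Igtp, Irgm, Nlrp, Nlrc or Parp, the Stat factors other than Stat3, the numbered Tlr genes, and Ddx58, Eif2ak2, Bst2, Mx1, Mx2, Tap1, Tap2, B2m, Sting1 and Mavs. Of 8102 genes that could be named on the array, 100 were members, represented by 126 probes. No member symbol started with Isg, and Eif2ak2, Bst2, Tap1, Tap2, B2m, Sting1, Mavs and Trim28 had no named probe and are not analysed here.

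Interferons bind receptors at the cell surface whose Jak kinases phosphorylate Stat factors. Activated Stat factors with Irf9 then bind a DNA element called ISRE, and dimers of Stat factors bind another called GAS, upstream of genes whose products hinder viruses and present antigens. Trim proteins are mostly ubiquitin ligases, some induced by interferon and others at work in chromatin and development. Pluripotent cells are known for a weak response to interferon and for expressing some interferon-stimulated genes, Ifitm genes among them, without added interferon.

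Total RNA of mouse ES cells labelled day 0 and of mouse EB cells labelled day 4 was hybridised to 1 bead array each. The labels do not spell out ES and EB, which in this field are common short forms of embryonic stem cell and of embryoid body, a floating aggregate in which stem cells start to differentiate. Strain, cell line, genotype, culture medium and feeder cells are not given in the sources used here. Each group had a single array, hence no test, p-value or standard deviation is given, and the culture, the position on the chip and the condition cannot be told apart. The standard error given beside a log2 difference comes from the beads of each array and covers measurement within an array only.

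Signals were read against a floor of 230.0 normalized intensity units, the level at which the detection score of the EB array passed 0.99. A ratio whose dimmer signal lay under the floor is a lower bound computed with the floor and is written "at least". A median of 38 beads stood behind each probe in ES and 37 in EB. The markers of both samples followed their labels. All 8 named markers of undifferentiated ES cells were lower in EB by at least 2-fold, and the 3 named markers of the primitive streak and early mesoderm, Eomes, Lhx1 and Lmo2, were higher by at least 2-fold.

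Among the members above the floor more were lower than higher in EB by a 2-fold size rule. Of the 100 members 32 exceeded the floor in at least 1 array, against 47.7% of all named genes, and 68 were under it in both. By this rule, which asks for a log2 difference of 1 or more in size, 7 of the 32 were lower in EB (21.9%) and 1 was higher (3.12%). Over all 3867 named genes above the floor 5.35% were lower and 3.72% higher by this rule. The 7 were the RNA sensor gene Ddx58, the interferon-induced effector genes Oas1a and Gbp2b, Pml, Trim25, Trim2 and Stat4. The 1 higher gene was Ifi27l2a. A negative difference of any size was found in 25 of the 32, against 44.5% of all named genes, and the median log2 difference, taken as EB minus ES throughout, was -0.48, against 0.06. These are descriptions of 2 arrays. The deposited series value table, whose making is not stated, gave 15 lower and 2 higher members and a median of -0.82, where 12.1% of all named genes were lower and 13.6% higher. Over all 100 members, most of them under the floor, the median was -0.033 with 54 negative, against a median of 0.022 over all 8102 named genes. Over 54 members kept by a detection rule the median was -0.17, against 0.0015 over the 5183 named genes kept by that detection rule. The count includes 8 of the 32 members above the floor in ES alone and 4 above it in EB alone, and of all named genes counted 6.70% were above it in ES alone and 7.63% in EB alone. Among the 20 members above it in both arrays, 4 (Gbp2b, Pml, Trim2 and Trim25) were lower past the rule, against 4.04% of the 3313 named genes that met this condition. Of the 20, 17 had a negative difference, and the median of the 20 was -0.35, against 0.06 over the 3313.

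**Figure D1:**
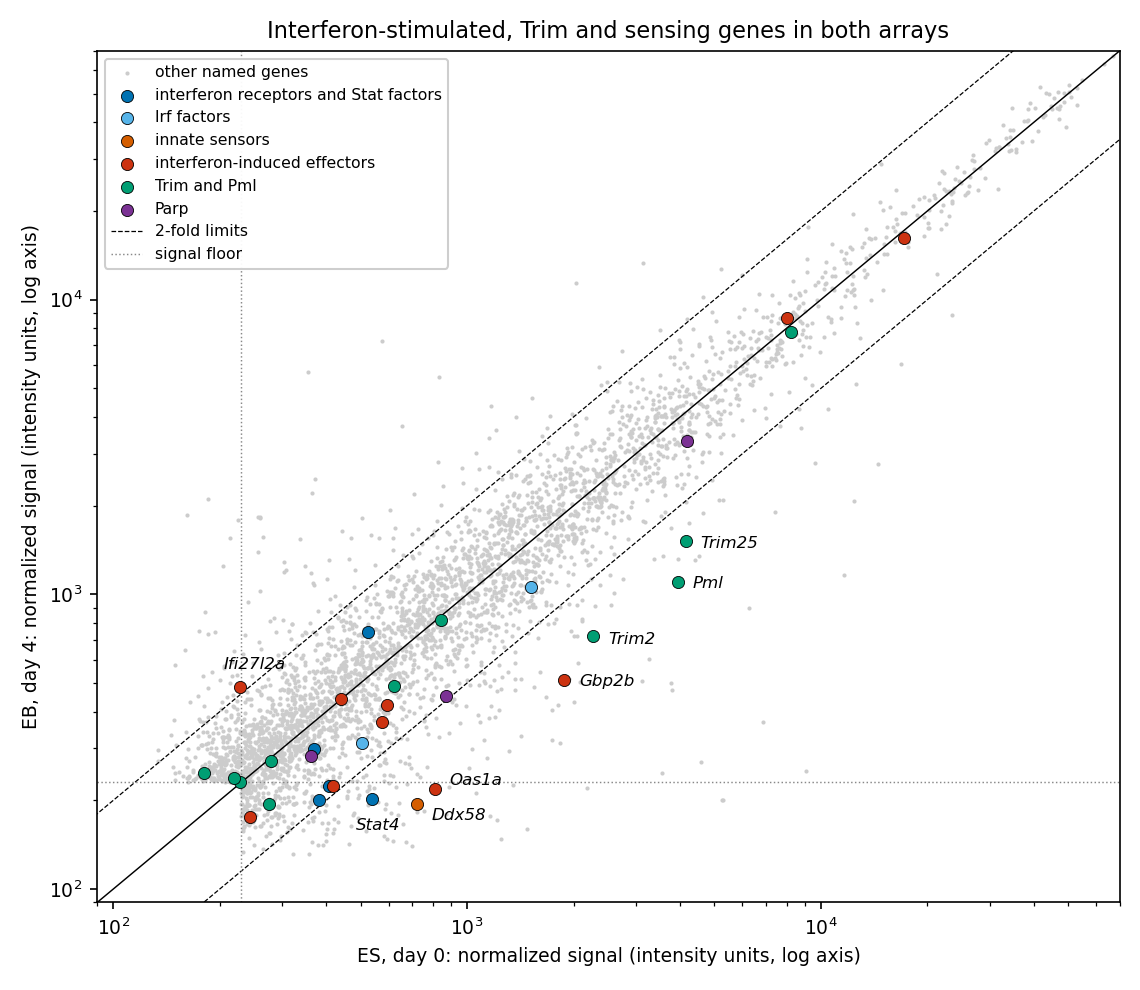
Normalized signal in EB (day 4, vertical log axis) against ES (day 0, horizontal log axis) in intensity units for the 3867 named genes above the floor in at least 1 array (grey), with the 32 members coloured by role and those past the 2-fold rule named. The 7 lower members lie under the lower dashed line and Ifi27l2a above the upper one; dotted lines mark the floor of 230.0.

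No member of the group of interferon genes exceeded the floor. Ifnb1 and Ifng, the genes of interferon beta and gamma, had no named probe and were not read. The group held 10 alpha interferon genes (Ifna1, Ifna2, Ifna4, Ifna5, Ifna7, Ifna9, Ifna11, Ifna14, Ifna15 and Ifna16), Ifnab, Ifnk, Ifnl3, Ifnz and the antisense RNA gene Ifngas1. All 15 were under the floor in both arrays, with signals from 119 to 223. Of these, 12 lie beside each other in the genome, from Ifna15 to Ifna1. Such close copies cannot be told apart without probe sequences, and a signal under the floor sets only an upper limit.

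The receptor and Stat genes were all above the floor, and 4 of 5 had a negative difference. Stat4, which transmits interleukin-12 signals in lymphocytes, gave 539 signal units in ES and 202 in EB. The drop was at least 2.34-fold, and the measured log2 difference was -1.42 (standard error 0.11). Stat6, the factor of interleukin-4 signalling, had signals of 382 and 201 and stayed just under the size rule with a log2 difference of -0.93. Ifnlr1, a receptor chain for lambda interferons, behaved alike, with 407 in ES and 223 in EB (-0.87). All 3 were under the floor in EB, and as bounds Stat6 was at least 1.66-fold and Ifnlr1 at least 1.77-fold lower. Ifngr2, the second chain of the receptor for interferon gamma, was the member of the group with a higher signal in EB, 744 against 523 in ES (0.51, standard error 0.10).

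Of 5 members named Irf, 2 were above the floor and both had negative differences that did not pass the 2-fold rule. Irf9, the DNA-binding part of the complex with Stat factors, had 503 in ES and 312 in EB, a ratio of 1.61 (-0.69, standard error 0.11). Irf1, a factor induced through GAS elements, had 1516 and 1062 (-0.51, standard error 0.09). Irf7, the factor that amplifies interferon production, and the Irf2-binding gene Irf2bpl were among those under the floor in both arrays.

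Sensing genes were under the floor in both arrays with 1 exception. Ddx58, which encodes the cytosolic RNA sensor RIG-I, gave 722 signal units in ES and 195 in EB. The drop was at least 3.14-fold, and the measured log2 difference was -1.89 (standard error 0.10). The 6 Tlr genes (Tlr1, Tlr4, Tlr8, Tlr11, Tlr12 and Tlr13) were under the floor in both arrays. So were the 7 Nlr genes, the inflammasome sensor gene Nlrc4, Nlrp10, and Nlrp4c, Nlrp5, Nlrp9b, Nlrp9c and Nlrp14, which are known from oocytes.

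Interferon-induced effectors included genes that were lower and genes with close signals in both samples. Of 26 genes 10 were above the floor, 2 of them lower and 1 higher by the 2-fold rule. Oas1a, a synthetase of short oligoadenylates in the defence against viral RNA, had 812 in ES and 218 in EB. The drop was at least 3.53-fold, and the measured log2 difference was -1.90 (standard error 0.11). The second Oas1a probe was under the floor in both arrays.

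Oas1g, a close relative next to Oas1a, was not shown past the rule. Its chosen probe had 418 in ES and 224 in EB, at least 1.82-fold lower (measured difference -0.90, standard error 0.13). A further one had 404 and 190, at least 1.76-fold lower (measured difference -1.09, standard error 0.10). The other Oas1g probe was under the floor in both arrays. All Oas1g signals were under the floor in EB. Because Oas1a and Oas1g are near copies and probe sequences are not at hand, part of either signal may come from the other gene, which was not tested. Oas3, which lies in the same cluster, was under the floor in both arrays.

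Gbp2b, an interferon-inducible guanylate-binding GTPase, was measured above the floor in both arrays, with 1884 in ES and 512 in EB. The drop was 3.68-fold (-1.88, standard error 0.07). The other 5 Gbp genes, its neighbours Gbp2 and Gbp5 and the farther Gbp4, Gbp6 and Gbp9, were under the floor in both arrays. Igtp, an immunity-related GTPase of the vacuole membrane, had 575 and 368 (-0.64, standard error 0.10). Its neighbour Irgm2, of the same GTPase family, had 440 in ES and 441 in EB (0.00, standard error 0.11). Igtp and Irgm2 thus differed in their change by more than the bead-level errors of these arrays. Each was read by 1 probe, neither passed the 2-fold rule, and 2 probes for the same gene differed by 0.40 (root mean square, log2 scale).

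Ifitm1 and Ifitm2, membrane proteins that hinder the entry of viruses, had close signals in both samples by their brighter probes. Ifitm1 had 17134 in ES and 16160 in EB (-0.08, standard error 0.06), and Ifitm2 had 8002 and 8701 (0.12, standard error 0.09). The second Ifitm1 probe was barely over the floor in ES, at 231, and under it in EB, so its difference has no size. Ifi30, a lysosomal thiol reductase of antigen processing, had 595 and 420 (-0.50, standard error 0.09). Ifit3, which takes part in the binding of foreign RNA, was barely over the floor in ES, with 243 in ES and 176 in EB. Ifi27l2a, a gene named for its induction by interferon, ran the other way, with 228 in ES, just under the floor, and 483 in EB. The gain was at least 2.10-fold (1.08, standard error 0.11). Mx1 and Mx2, antiviral GTPases, were under the floor in both arrays. So were Ifi44l, Ifi47, Ifit1bl2, Ifitm7 and the 4 neighbours Ifi209, Ifi203, Ifi202b and Ifi205.

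**Figure D2:**
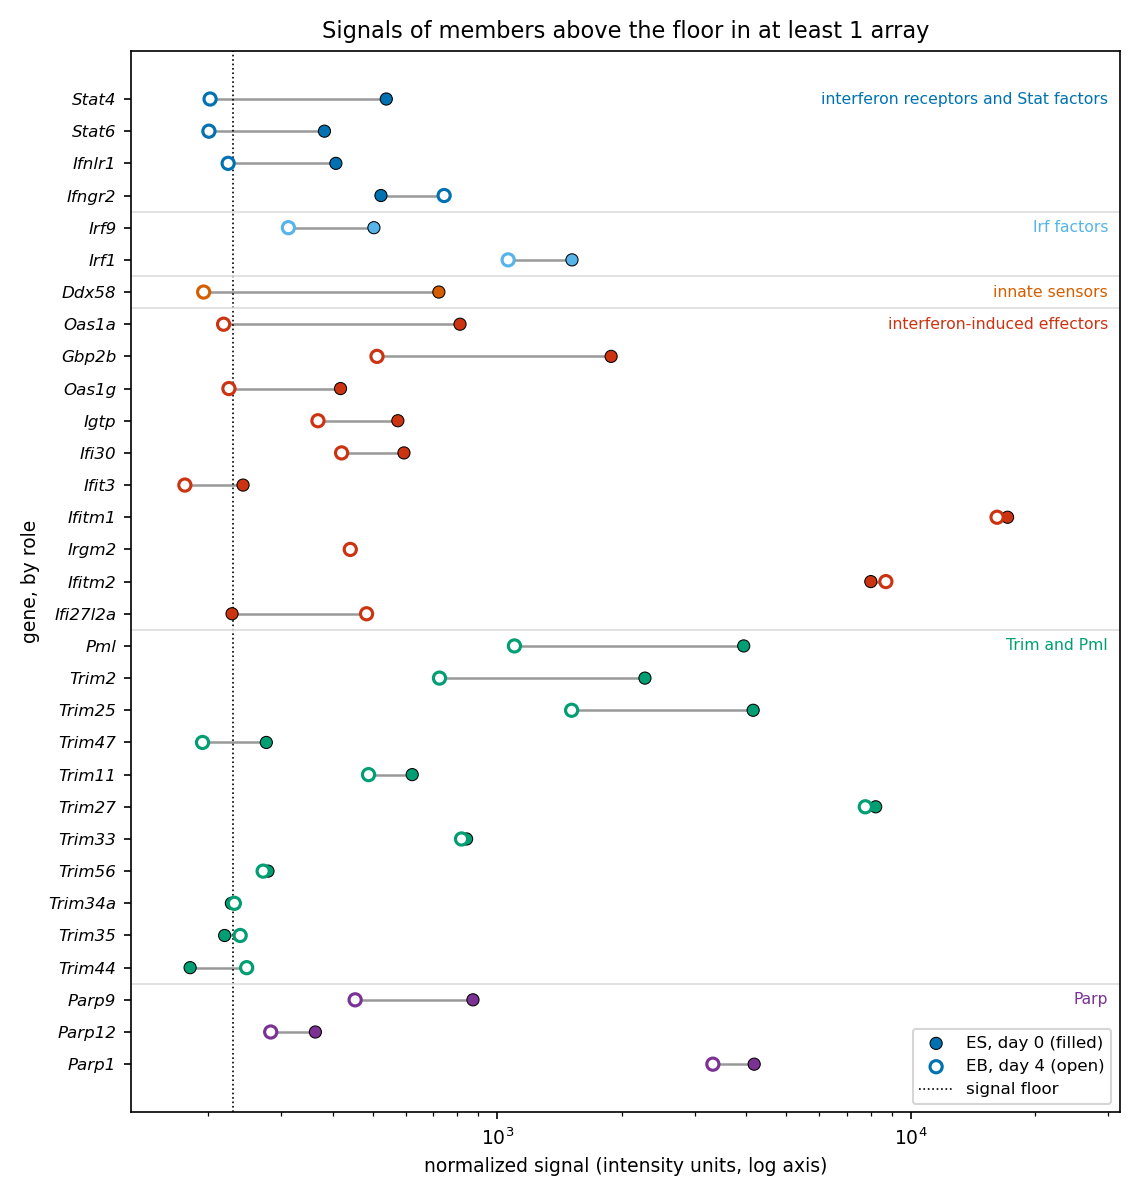
Normalized signal (log axis, intensity units) of 31 of the 32 members above the floor in at least 1 array, by role, in ES (filled) and EB (open), with a line joining both values of a gene. Most open points lie to the left of their filled partner; Stat4, Ddx58 and Oas1a end under the floor (dotted), while Ifngr2 and Ifi27l2a run to the right.

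The bases before the starts of several of these genes hold letters that match the elements through which interferons act, and they are shown because the genes differ in how they changed. RefSeq promoter windows (GRCm38.p6, 250 bases before and 50 after each annotated start) were at hand for 79 of the 100 members, and for 26 of the 32 above the floor. Those with none used include Ifi27l2a, Parp9, Trim11, Trim33 and Trim35. The windows were searched for an ISRE core, GAAANNGAAA or TTTCNNTTTC for the other strand, and for a GAS core, TTCNNNGAA, which reads the same on both strands. Each sequence runs from 150 bases before to 15 after the start, and capitals mark a match.
Oas1a (chr5:120907511-120907675, reverse strand): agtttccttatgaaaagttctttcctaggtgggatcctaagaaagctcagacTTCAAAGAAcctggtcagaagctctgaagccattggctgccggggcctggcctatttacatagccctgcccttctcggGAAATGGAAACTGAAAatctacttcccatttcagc
Oas1g (chr5:120887599-120887763, reverse strand): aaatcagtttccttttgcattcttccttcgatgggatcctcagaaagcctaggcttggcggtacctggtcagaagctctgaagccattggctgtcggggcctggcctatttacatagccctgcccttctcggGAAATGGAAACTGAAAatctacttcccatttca
Ddx58 (chr4:40239811-40239975, reverse strand): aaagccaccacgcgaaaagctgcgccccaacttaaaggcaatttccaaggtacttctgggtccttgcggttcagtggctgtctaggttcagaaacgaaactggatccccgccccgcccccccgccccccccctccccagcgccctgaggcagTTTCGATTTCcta
Gbp2b (chr3:142594697-142594861, forward strand): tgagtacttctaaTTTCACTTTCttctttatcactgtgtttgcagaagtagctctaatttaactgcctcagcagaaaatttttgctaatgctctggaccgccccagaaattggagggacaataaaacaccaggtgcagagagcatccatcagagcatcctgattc
Igtp (chr11:58199406-58199570, forward strand): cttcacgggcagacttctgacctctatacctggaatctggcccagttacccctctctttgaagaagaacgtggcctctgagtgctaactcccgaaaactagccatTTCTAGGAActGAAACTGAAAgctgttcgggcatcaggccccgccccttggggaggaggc
Irgm2 (chr11:58214827-58214991, forward strand): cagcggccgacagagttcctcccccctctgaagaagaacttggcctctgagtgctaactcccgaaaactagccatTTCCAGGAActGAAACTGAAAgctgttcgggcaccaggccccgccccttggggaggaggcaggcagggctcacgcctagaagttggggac
Irf1 (chr11:53769864-53770028, forward strand): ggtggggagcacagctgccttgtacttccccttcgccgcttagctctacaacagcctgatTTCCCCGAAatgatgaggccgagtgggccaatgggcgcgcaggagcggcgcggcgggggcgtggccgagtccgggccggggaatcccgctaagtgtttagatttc

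In Oas1a the first capitals are a GAS match and the second run holds 2 overlapping ISRE matches, GAAATGGAAA and GAAACTGAAA, 20 and 14 bases before the start. Oas1g carries the same 2 ISRE matches 18 and 12 bases before its start and no GAS match. Ddx58 has TTTCGATTTC from base 3 after the start and Gbp2b TTTCACTTTC 137 bases before it. Igtp and Irgm2 carry the same ISRE match, GAAACTGAAA, after the GAS matches TTCTAGGAA and TTCCAGGAA respectively, although Igtp gave a log2 difference of -0.64 and Irgm2 of 0.00. Irf1 has the GAS match TTCCCCGAA 90 bases before 1 of its 2 annotated starts. Among members above the floor whose sequence is not printed, Ifitm2 held an ISRE match 46 bases before its start, with a log2 difference of 0.12. Ifit3 and Trim34a, both near the floor, also held ISRE matches, as did Stat4 and Trim2.

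An ISRE match stood in the windows of 33 of 79 members (41.8%), and in 3.44% of all 32851 windows of the table and 3.99% of its 27025 genes. Many members were chosen by symbols given for induction by interferon, so their share is not independent of that choice. Among the members past the 2-fold rule on the lower side 5 of 7 held one, and among members above the floor with smaller differences 6 of 19. For Stat4 the match was in 1 of 2 windows and for Trim2 in 1 of 5, so these genes had more chances of a match. Pml and Trim25 held neither motif. GAS matches were found in 17 of 79 members (21.5%), in 8.30% of all windows and in 9.55% of the genes. They stood in 1 of the 7 lower members and in 3 of the 19 with smaller differences. A match is a description of letters and does not show that a factor binds there.

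Trim genes and Pml, most of whose products are ubiquitin ligases with a RING finger, were 31 members, of which 11 were above the floor. Of these 3 were lower by the 2-fold rule, none was higher, and the median log2 difference was -0.08. Pml, the organiser of the nuclear bodies that carry its name, gave 3943 signal units in ES and 1100 in EB. The drop was 3.58-fold (-1.84, standard error 0.08). Trim25, the ligase best known for modifying RIG-I, had 4156 and 1512, 2.75-fold lower (-1.46, standard error 0.09). Trim25 and its partner gene Ddx58 were thus both lower in EB. Trim2, a ligase known from neurons, had 2275 and 725, 3.14-fold lower (-1.65, standard error 0.11). The second Trim2 probe was under the floor in both arrays.

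The other 8 Trim genes above the floor did not pass the rule. Trim27, a RING ligase of the nucleus, had 8222 in ES and 7760 in EB (-0.08, standard error 0.05). Trim33, a chromatin reader that works with Smad factors, had 843 and 819 (-0.04) by its chosen probe, and its other probes gave 0.16 and 0.11. Trim11 had 622 and 488 (-0.35) and Trim56 279 and 271 (-0.04). Trim47 passed the floor in ES alone, with 276 against 194 in EB. Trim34a, Trim35 and Trim44 passed the floor in EB alone, each by less than 20 signal units, so none of their differences can be given a size. The remaining 20 were under it in both arrays. Trim6, Trim12a, Trim12c, Trim30a, Trim30b and Trim30d among them stand in a row of 7 neighbours of which Trim34a alone reached the floor. The others were Trim7, Trim9, Trim13, Trim14, Trim16, Trim17, Trim23, Trim36, Trim45, Trim52, Trim60, Trim61, Trim65 and Trim67.

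Parp genes encode enzymes of ADP-ribosylation, some of them interferon-induced. All 3 members of 4 above the floor had negative differences and none passed the 2-fold rule. Parp9, which forms a complex with the ubiquitin ligase Dtx3l, had 873 in ES and 453 in EB, a ratio of 1.93 (-0.95, standard error 0.09). Dtx3l itself, which is no member, had 1118 and 508, 2.20-fold lower (-1.14, standard error 0.08). Parp11 was under the floor in both arrays. Parp12, an interferon-induced member, had 363 and 283 (-0.36), and Parp1, the DNA damage enzyme, 4179 and 3321 (-0.33, standard error 0.09).

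**Figure D3:**
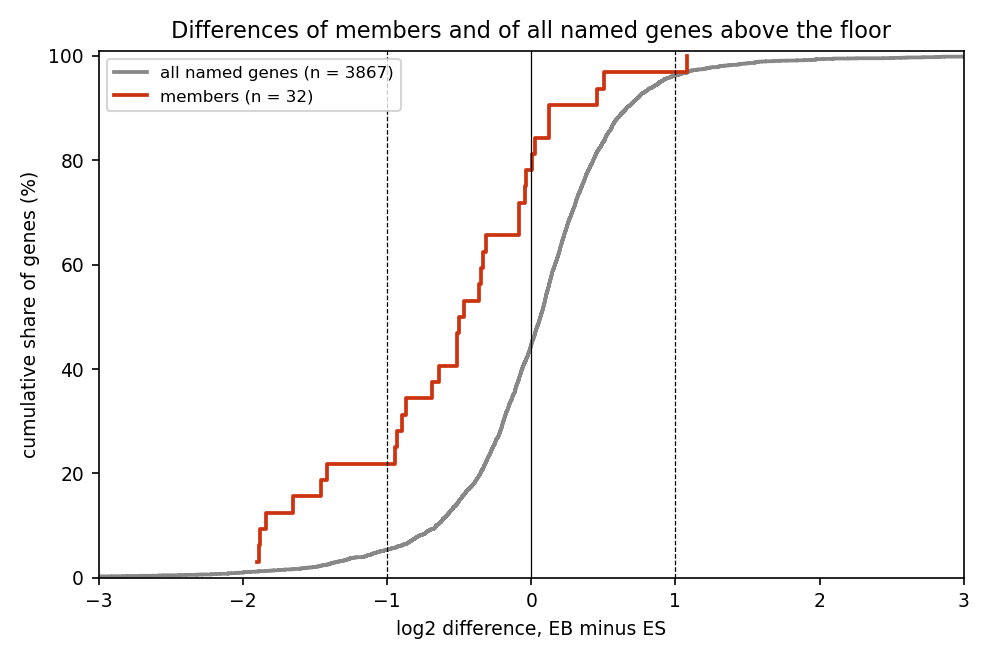
Cumulative share of genes (%) by log2 difference, EB minus ES, for the 32 members above the floor in at least 1 array (red) and all 3867 such named genes (grey); dashed lines mark the 2-fold limits. The red curve lies to the left of the grey one over most of its range, with medians of -0.48 and 0.06.

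**Figure D4:**
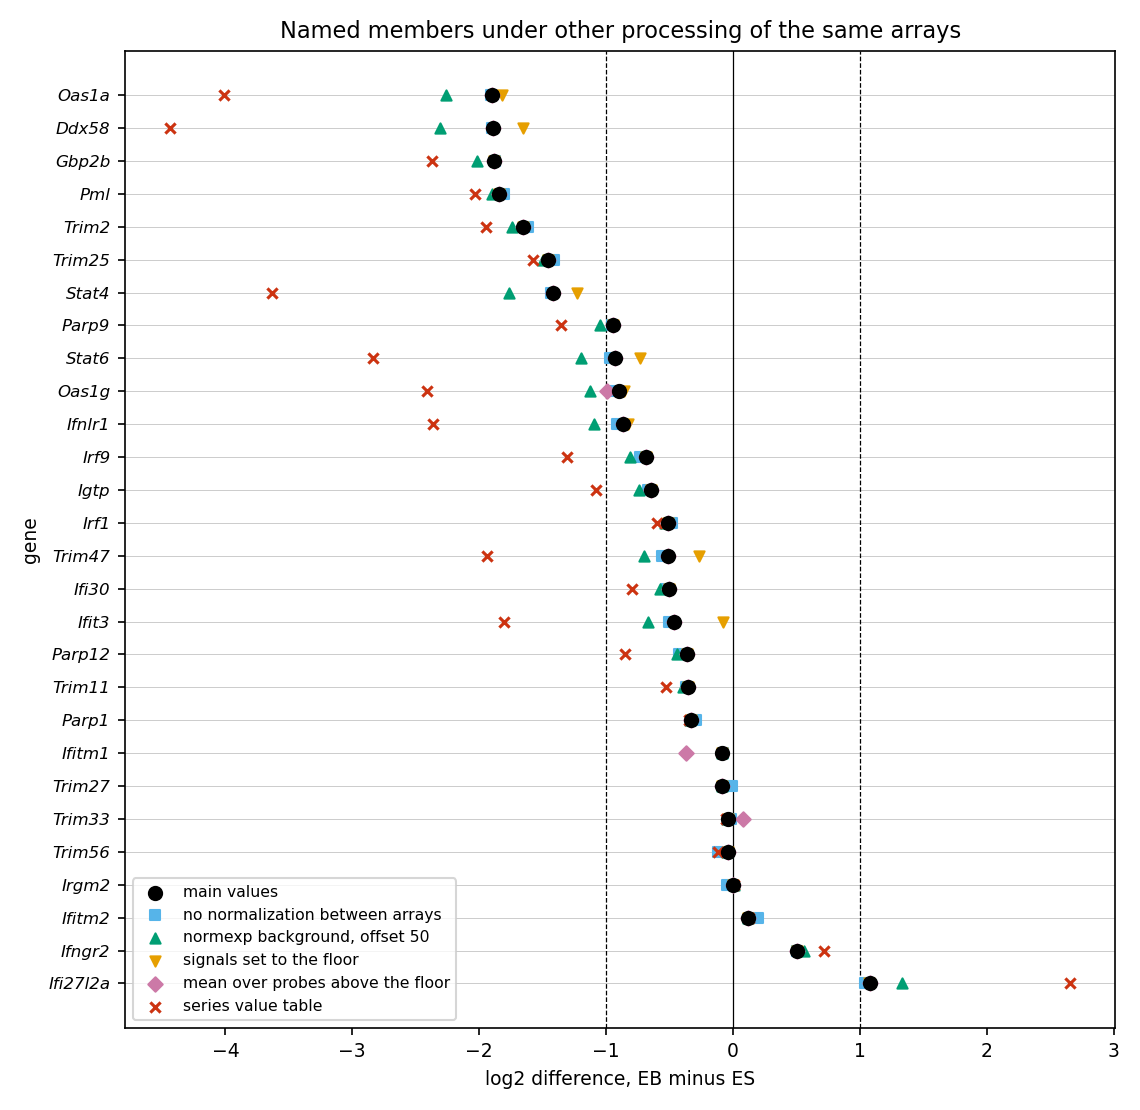
Log2 difference, EB minus ES, of the named members from the main values (black circles) and from 5 other ways of processing the same 2 arrays, with dashed lines at the 2-fold limits. The 7 lower genes stay left of the lower limit in all of them; the series value table moves members that are dim in EB, such as Ddx58 (-4.44) and Stat4 (-3.64), farthest.

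At a 1.5-fold limit 13 of the 32 members were lower and 1 was higher. Over all 3867 genes 12.0% were lower and 12.4% higher at that limit. The 6 members between both limits were Parp9, Stat6, Oas1g, Ifnlr1, Irf9 and Igtp. The bead-level standard errors of the 14 members past the 1.5-fold limit ran from 0.07 to 0.13, and each of these differences was over 6 times its own error. A wider measure of error is the disagreement of 2 probes for a gene. Over 391 named genes with exactly 2 probes above the floor the differences of the 2 probes differed by 0.40 (root mean square, log2 scale).

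Genes of the same pathways outside the symbol rule gave a mixed picture. Of 8 other interferon-induced genes above the floor 2 were lower by the 2-fold rule, none was higher, 6 had a negative difference, and the median was -0.39. The 2 were Dtx3l and Apobec3, which restricts retroviruses and had 518 in ES and 243 in EB (-1.09, standard error 0.13). Ly6e (-0.37), Samhd1 (-0.27) and Plscr1 (0.11) stayed under the rule. Of 9 Jak-Stat kinases and brakes above the floor 1 was lower and none higher, with a median of 0.06. It was Jak3, the kinase of cytokine receptors with the common gamma chain, with 719 and 246 (-1.55) by its chosen probe and -1.23 by its second. Jak2 gave -0.36 and Tyk2, a kinase of the type I interferon receptor, 0.06.

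The innate signalling adaptors and kinases above the floor had differences of the other sign than the sensor Ddx58. Of 13 named genes 6 were under the floor in both arrays. None of the 7 above it passed the rule in either direction, and all 7 had a positive difference. They ran from 0.19 for Tbk1, the kinase that activates Irf3, to 0.60 for Fadd, an adaptor of death receptors. Of all 3867 named genes above the floor 2140 had a positive difference. Of 12 named genes of MHC class I and peptide loading 4, H2-D1, H2-Q1, Canx and Erap1, were under the floor in both arrays. None of the 8 above it passed the rule. The median was -0.04 and 4 of the 8 had a negative difference, with Psmb10, an immunoproteasome subunit, at -0.74. Of the class I genes among them H2-Q2 gave -0.62, H2-T23 -0.41 and H2-K1, which was close to the floor, -0.07. H2-Bl, a class I gene outside the list that was picked after its values were seen, did pass it, with 668 in ES and 267 in EB (-1.32). Of 2 NF-kappaB genes above the floor Bcl3, a nuclear relative of the IkappaB inhibitors, was at least 2.68-fold lower, with 616 in ES and a signal under the floor in EB. Of 9 partners of Trim28 in the repression of retroelements above the floor Atf7ip, a cofactor of the histone methyltransferase Setdb1, was 2.20-fold lower (2370 and 1079). The median of the 9 was 0.14.

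**Figure D5:**
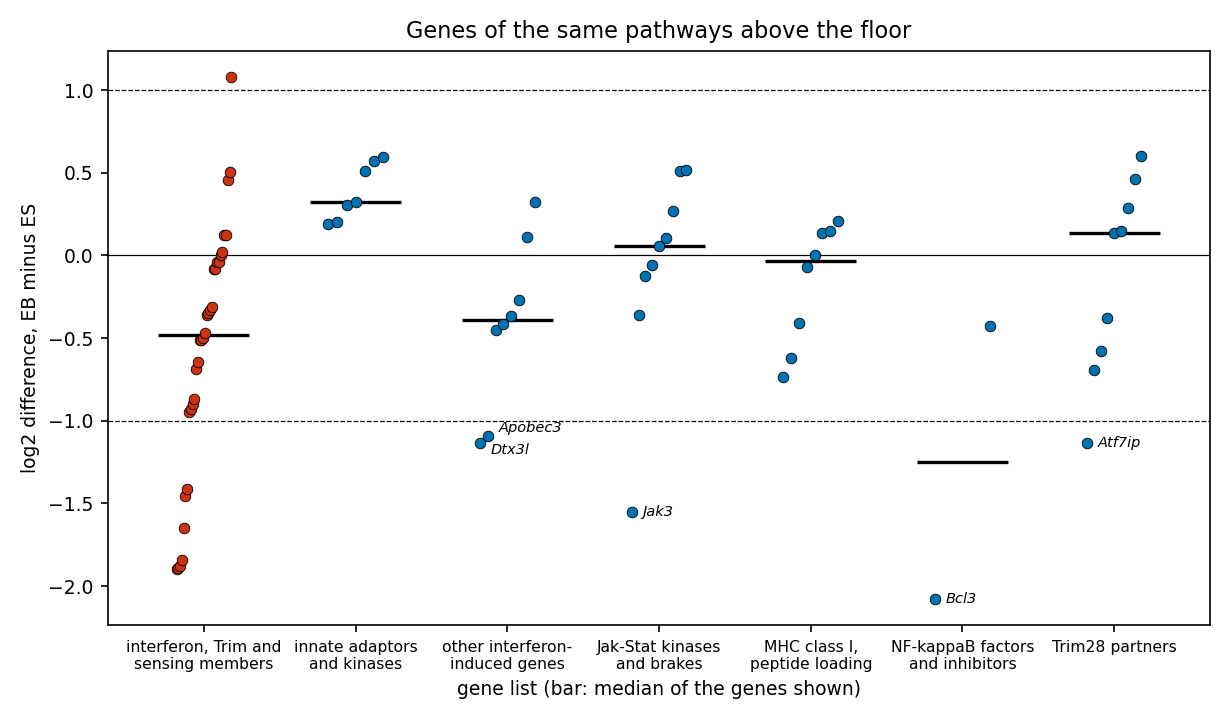
Log2 difference, EB minus ES, of each gene above the floor in at least 1 array, for the 32 members (red) and 6 lists of related genes (blue), with a bar at each median and dashed lines at the 2-fold limits. The other interferon-induced genes share the negative median of the members, while the 7 adaptors and kinases all lie above 0.

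Markers of other cells that express interferon-stimulated genes were read beside these results. Of 8 named leukocyte and macrophage markers 6 were under the floor in both arrays, among them the pan-leukocyte gene Ptprc and the macrophage receptor gene Csf1r. Cd68 had 344 in ES and 158 in EB, and Cd74 292 and 207, and the summed signal of the 8 was 1614 in ES and 1331 in EB. Of 6 named fibroblast markers, which feeder cells would carry, Col1a2, Col3a1, Dcn and Postn were under the floor in both arrays. Col1a1 had 2602 in ES and 1007 in EB and Acta2 419 and 242, and the summed signal of the 6 was 3636.5 and 1855. No background was subtracted, so the sums of both lists include the background of the markers under the floor. Of the endothelial markers 1 was named, Pecam1, with 833 and 329, and this single gene does not identify endothelial cells. Their part in the differences of the members was not tested. In bulk RNA fewer cells of a type and less RNA per cell cannot be told apart.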

How the data were processed

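The authors deposited bead-averaged intensity per probe, exported from BeadStudio 2.3.41 for the Mouse-6 v1.1 array with normalization and error model set to none, per the file headers. The bead count per probe, a bead spread and, for EB, a detection score given as a fraction from 0 to 1 are also deposited. BeadStudio 2, RMA and limma appear without a role in the submitters' processing notes. The bead spread fell with the bead number (slope on log scales -0.44 in ES, -0.47 in EB, signals of at least 1000) and was read as a standard error. The deposited series value table holds processed intensity whose making is not stated, and served as an alternative. Among the member probes, equal normalized signals had equal values in it. A signal of 167.55, for instance, stood at 15.06 for Trim30a in ES and for Tlr11 in EB. It thus rescales signals like those used here and is no independent check on them.

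Here the 2 arrays were brought to 1 distribution by quantile normalization and log2 values taken, with no background step (Python 3.11.15, pandas 2.3.3). This leaves background in, which shrinks the differences of dim probes. Zero-padded numbers of at least 10000 in the identifiers were taken as NCBI Gene IDs and named through a RefSeq table (GRCm38.p6). Of 11857 such probes 9796 (82.6%) matched. The probe with the highest mean log2 signal stood for a gene. Named in the text are members above the floor with an absolute log2 difference of at least 0.58, and the up to 5 with the highest signal in each role group. Also named are genes of other lists past the 2-fold rule and examples from them chosen after their values were seen. The normexp alternative used limma 3.58.1 in R 4.3.3 with an offset of 50. The counting was tested on simulated data, with 4-fold changes planted in probes of signal over 1000 and bead-level noise alone. That test does not cover smaller differences, like those of the members, or probes near the floor. Members and lists were chosen with earlier results of these data known. The values of 2 members are counted but not reported here. The number of arrays limits the precision.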

Additional observations from a re-analysis of the deposited data

How the results depend on the processing

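No paired analysis was possible because ES and EB have 1 array each, and so no array could be left out. The 7 lower and 1 higher members past the 2-fold rule were the same genes without normalization between arrays, without a filter on signal, with detection by score in EB or median signal in ES, with signals set to the floor, with the mean over probes, and with a limit of 2 bead-level standard errors. Some of these agreements were fixed in advance. Both changes of the filter keep every gene above the floor and could only add dimmer genes. None of the members past the rule had a second probe above the floor, so the mean over probes left their values as they were. Each of their differences was many times its bead-level error, so that limit could remove none. The series value table gave 15 lower and 2 higher members (all named genes: 12.1% and 13.6%), with a median log2 difference of -0.82. Normexp gave 11 lower and 1 higher (6.85% and 5.48%). Signals above the floor in both arrays gave 4 lower and 0 higher, with a median of -0.35 (all named genes: 4.04% and 3.11%, median 0.06). The 1.5-fold limit gave 13 lower and the 4-fold limit 0 lower and 0 higher, where 1.03% and 0.595% of all named genes passed it. The median was -0.033 without a filter over all 100 members (all named genes: 0.022). It was -0.17 with detection by score or median over 54 members (all named genes: 0.0015), and -0.35 with signals set to the floor (all named genes: 0.05). Leaving out settings that repeat a main value by construction, 99 differences of single members took another value, of which 85 kept their direction and side of the rule, 12 passed it newly in the direction they had, and 2, of Irgm2 and Trim33, changed sign near 0. No value past the rule changed sign. The series value table stretches dim signals, so the log2 difference of Ddx58 ran from -4.44 there to -1.65 with signals set to the floor.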

Other observations

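Genes above the floor were also sorted by promoter letters in place of names. Of 3107 named genes with a RefSeq window, 93 held an ISRE match, of which 10 were lower (10.8%) and 6 higher (6.45%) by the 2-fold rule, against 4.74% and 3.55% of the 3014 without a match. The 10 include the members Oas1a, Ddx58, Gbp2b, Trim2 and Stat4. Without members, 5 of 82 were lower (6.1%) and 6 higher (7.32%), with a median log2 difference of 0.09, against 0.06 over all 3107. The 5 lower genes outside the members were Spp1, which encodes osteopontin (at least 22.98-fold), Ccdc92 (2.79-fold), Sgk1, a serum- and glucocorticoid-induced kinase (2.40-fold), Apobec3 (2.13-fold) and Pde1b, a phosphodiesterase (2.02-fold). The 6 higher were Eomes, a T-box factor of early mesendoderm (7.06-fold), Vldlr, a lipoprotein receptor (6.62-fold), Wls, a carrier of Wnt proteins (2.81-fold), Tmc7 (2.51-fold), Igf2bp3, an RNA-binding protein (2.15-fold), and Colec11, a collectin (at least 1.19-fold). Colec11 was under the floor in ES, at 133.5, and had 273 in EB. It is counted as higher by its measured difference of 1.03, although its bound does not reach 2-fold. Genes with a match outside the members thus went both ways in these arrays, and no test was made.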
